A study of Homo sapiens with 20 samples.

Results

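The cancer-testis antigen genes of 5 human multiple myeloma cell models were described: which model held which antigen, and how their transcripts differed between cells given indirubin-3'-monoxime (I3MO) and cells given the vehicle DMSO. The set was defined by name, not by measured values: protein-coding genes whose symbols begin with MAGEA, MAGEB, MAGEC, GAGE, PAGE, XAGE, SSX or CTAG and a number, together with ACTL8, PRAME, DDX43, TEX14 and SPAG9. It held 67 of the 60483 listed genes: 12 MAGEA, 11 MAGEB, 3 MAGEC, 13 GAGE, 6 PAGE, 5 XAGE, 9 SSX and 3 CTAG genes and the 5 single genes. Of these, 61 lie on the X chromosome. SSX2IP meets the naming rule but encodes a partner of the SSX2 protein, and SPAG9 is active in many tissues, so these members are not antigens restricted to testis.

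The 10 groups, each with 2 libraries of total RNA, were I3MO and DMSO forms of U266, ARP1, RPMI8226, ANBL6BR and ANBL6. ANBL6BR is ANBL6 in a form that its labels call bortezomib resistant (bortezomib inhibits the proteasome), and the other models are labelled wild type. I3MO, an indirubin derivative that inhibits kinases and binds the aryl hydrocarbon receptor, was given at 5 µM to ANBL6BR and ANBL6 and at 10 µM to U266, ARP1 and RPMI8226, so dose and model cannot be told apart between these sets. The length of treatment, the number of clones behind ANBL6BR and whether replicates were separate cultures are not given in the sources used here. The p-values therefore cover only how far these samples spread, and that spread may be technical.

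Cancer-testis antigens are proteins normally made in germ cells of the testis and in some tumours. In most adult tissues their promoters are silenced by DNA methylation at CpG sites and by repressive chromatin, and loss of that silencing in a cancer cell can switch single genes on. MAGE proteins bind and direct ubiquitin ligases, SSX proteins repress transcription, and fragments of many of these antigens are presented to T cells, which makes them targets of vaccines and engineered T cells. In myeloma, members of the MAGEA, MAGEC and CTAG families are among the best studied.

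Levels are deposited FPKM, in which fragments are scaled to gene length in kilobases and to the library total in 1000000 fragments. The library totals recovered from the FPKM steps were 12110454 to 20312340 fragments. Whether these are the fragments on protein-coding genes was not checked. All 10 plasma cell marker genes were detected, with summed levels of 217 to 646 FPKM per library. Of 11 germ cell and testis marker genes, 2 reached 1 FPKM in at least 2 libraries (AMH and INSL3, hormone genes of the somatic cells of the gonads), 1 was at 0 throughout, and the summed level was 0.833 to 7.47 FPKM. In bulk RNA, fewer cells with a transcript and less transcript per cell cannot be told apart.

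Of the 67 genes, 55 were above 0 in at least 1 library and 26 reached 1 FPKM in at least 2 libraries, the threshold for testing. Tests were made by limma on log2(FPKM + 1) over 15687 genes, with p-values adjusted by the Benjamini-Hochberg method over all of them. Genes with an adjusted p under 0.05 are referred to as called. Fold changes are on this scale, which understates changes of low genes. The 26 tested genes passed the threshold through the models that held them, so a difference between models was built into their selection. The other 29 detected genes stayed below that threshold, and 12 were at 0 in all 20 libraries: GAGE12B, GAGE12C, GAGE12D, GAGE12E, GAGE12F, GAGE12G, GAGE2E, MAGEB5, SSX2, SSX2B, SSX4B and XAGE2.

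Zero values have to be read beside sequence identity between copies. Of the transcripts of 18 members, at least 80% of all 100-base windows also occurred in another gene, and 10 of these members were at 0 in all libraries while 1, MAGEA9, passed the threshold for testing. Of the other 49 members, 2 were at 0 in all libraries and 25 passed the threshold. The 10 members with every window shared had a highest level of 0.564 FPKM. MAGEA9B, at 79.9% shared, lay just under that limit. The sources used here do not say how fragments that match several copies were counted, so the levels of such genes are uncertain and a 0 does not show that the gene is silent. MAGEA1, MAGEB2, MAGEC1, MAGEC2, PAGE1, SSX1, ACTL8 and PRAME share no such window with another gene. Exons of other genes overlap 16.2% of the exon bases of MAGEA10, 5.58% of MAGEA4 and 4.68% of TEX14, so part of their reads cannot be assigned. For MAGEA10 the overlapping gene lies on the same strand, for MAGEA4 on the opposite strand, and for TEX14 on both, and the strand of counting is not given.

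**Figure D1:**
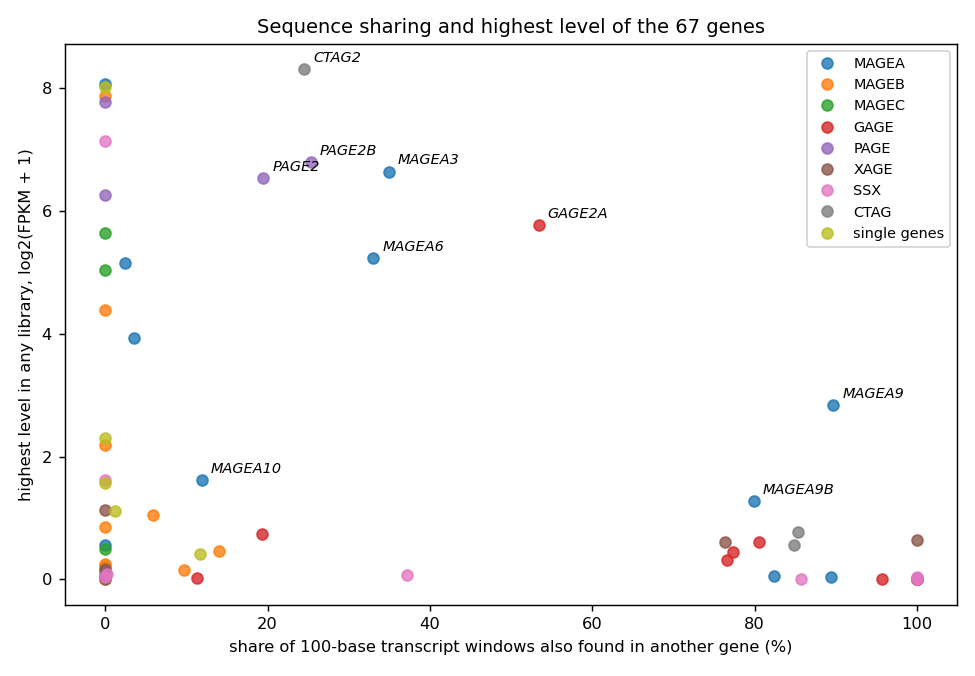
Highest level of each of the 67 genes in any library, as log2(FPKM + 1), against the share of its 100-base transcript windows that also occur in another gene, in percent. Each point is a gene and colours mark families. The genes with every window shared lie at or near 0, while CTAG2, with 24.5% shared, reached 315 FPKM.

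A model was counted as holding an antigen where both DMSO libraries had at least 1 FPKM. By that measure U266 held 18 of the 67 genes, RPMI8226 and ANBL6 11 each, ARP1 6 and ANBL6BR 2. In the I3MO libraries the counts were 18 in U266, 10 in RPMI8226, 10 in ANBL6, 7 in ARP1 and 2 in ANBL6BR. Of the 24 genes held by any model in DMSO, 7 were held by 1 model, 11 by 2, 5 by 3 and 1 by 4, and none was held by all 5. These counts depend on the gene length used. For 50 of the 55 detected members the deposited FPKM fitted division by the summed length of all annotated transcripts. That length exceeds the merged exon length 5.17-fold for PRAME and 3.88-fold for TEX14 but not for MAGEA1 or SSX1. On merged exon lengths, a scale chosen after the data were seen, U266 held 24 genes in DMSO, RPMI8226 15, ANBL6 11, ARP1 7 and ANBL6BR 3, with 5 genes held by 1 model, 13 by 2, 4 by 3, 3 by 4, and SPAG9 by all 5. All 26 tested genes were called in the test of equal DMSO levels between the 5 models, where 90% of all tested genes were called. Given as a share of the library total recovered from the FPKM steps, the 67 genes made up 3014 to 3477 fragments per 1000000 in U266, 1449 to 1598 in ANBL6, 729 to 875 in ARP1, 665 to 729.9 in RPMI8226 and 157 to 274 in ANBL6BR. These ranges, over 4 libraries each, overlapped only between ARP1 and RPMI8226.

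**Figure D2:**
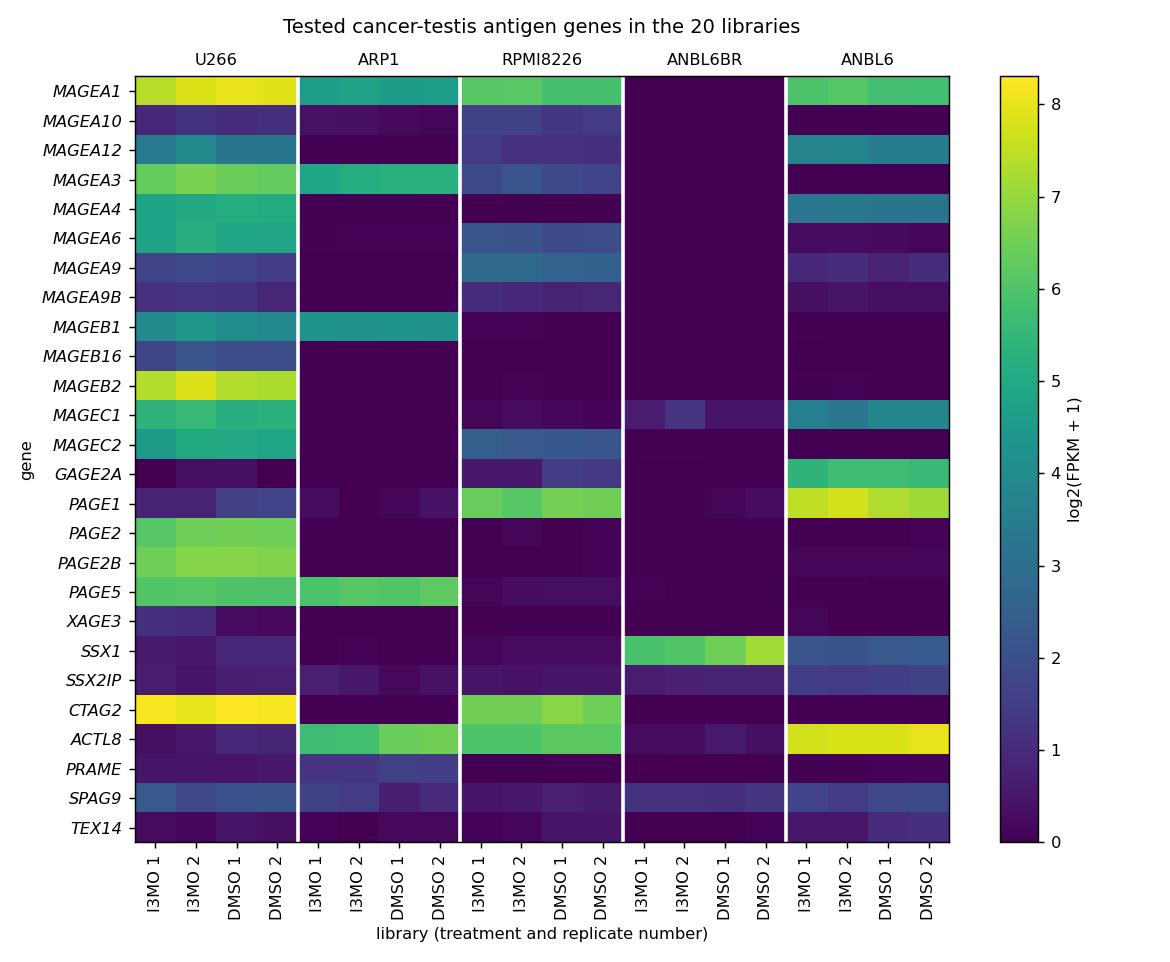
Levels of the 26 tested genes (rows) in the 20 libraries (columns, by model, with I3MO left of DMSO), as log2(FPKM + 1) from dark (0) to yellow. Each model has its own set of bright rows, and in ANBL6BR only SSX1 exceeds 2 FPKM.

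The MAGEA genes, whose proteins activate RING ubiquitin ligases, were held in every model but ANBL6BR. MAGEA1 (ENSG00000198681.6, chrX:153179285-153183880 on hg38) had 268 and 245 FPKM in U266, 57.9 and 58.8 in RPMI8226, 56.5 and 53.8 in ANBL6 and 22.9 and 23.5 in ARP1, all in DMSO, and it was at 0 in all 4 ANBL6BR libraries. The order was U266 above the rest, then RPMI8226 and ANBL6, which did not pass the test between them (limma adjusted p = 0.635), then ARP1 (limma adjusted p = 1.58e-06 below ANBL6). MAGEA4 had 34.5 and 32.8 FPKM in U266 DMSO and 8.19 and 8.26 FPKM in ANBL6 DMSO, and was at most 0.0459 FPKM in the DMSO libraries of the other models. MAGEA12 was held by ANBL6, U266 and RPMI8226, MAGEA9 by RPMI8226 and U266, and MAGEA10 by the same pair. MAGEA9 and MAGEA9B share 89.7% and 79.9% of their 100-base windows, all of them with each other, so their split between the copies is uncertain.

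MAGEA3 and MAGEA6, related genes with 34.9% and 33.0% of windows shared and other MAGEA genes between them, differed in which models held them. MAGEA3 (ENSG00000221867.7, chrX:152698752-152702347) had 83.3 and 78.0 FPKM in U266, 37.9 and 37.7 in ARP1 and 2.57 and 2.18 in RPMI8226. MAGEA6 (ENSG00000197172.9, chrX:152766136-152769747) had 29.5 and 27.6 FPKM in U266 and 2.79 and 2.87 in RPMI8226, but 0.0677 and 0.0525 in ARP1, from 6 and 5 fragments beside 2757 and 2950 fragments of MAGEA3. ARP1 thus held MAGEA3 without MAGEA6, a difference larger than the spread between replicates in either gene, while U266 and RPMI8226 held both.

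Among MAGEB genes, MAGEB2 was held by U266 alone, at 161 and 155 FPKM in its DMSO libraries. In all libraries of the other models it was at most 0.0612 FPKM. MAGEB16 was also held only by U266, at 2.89 and 2.88 FPKM. MAGEB1 had 18.9 and 17.6 FPKM in ARP1 and 15.3 and 13.7 in U266 (limma adjusted p = 0.0238 between the models). Of the MAGEC genes, MAGEC1, an antigen often found in myeloma, had 36.1 and 39.3 FPKM in U266 and 13.2 and 13.0 in ANBL6, and MAGEC2 had 31.4 and 29.1 in U266 and 3.91 and 3.54 in RPMI8226.

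CTAG2, also called LAGE-1 and a close relative of the NY-ESO-1 antigen, had 315 and 292 FPKM in U266 and 111 and 88.0 in RPMI8226, with a limma adjusted p of 1.6e-08 between the models. It was at most 0.0408 FPKM in all other libraries. CTAG1A and CTAG1B, the near-identical copies that encode NY-ESO-1, had at most 0.710 and 0.473 FPKM, both in U266. As 85.3% and 84.9% of their windows are shared, these levels are uncertain.

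The small acidic proteins of the GAGE, PAGE and XAGE families are related and of unsettled function. PAGE1 (ENSG00000068985.4, chrX:49687450-49695993) had 159.6 and 139 FPKM in ANBL6 and 94.2 and 89.8 in RPMI8226, and 1.98 and 2.16 in U266. PAGE5 had 65.2 and 75.4 FPKM in ARP1 and 63.3 and 61.6 in U266, which did not pass the test between them (limma adjusted p = 0.117). GAGE2A (ENSG00000189064.8, chrX:49589529-49596827) was the 1 tested gene of 13 in its family, with 51.5 and 47.9 FPKM in ANBL6 and 1.88 and 1.57 in RPMI8226. It shares 53.4% of its windows with other genes, and 14.2% of its exon bases overlap GAGE1, so its level is uncertain. XAGE3 passed the threshold only through the I3MO libraries of U266.

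PAGE2 and PAGE2B, a duplicated pair, were held by U266 alone: PAGE2 at 91.4 and 87.5 FPKM and PAGE2B at 110.0 and 104 FPKM in DMSO. In the other models neither exceeded 0.113 FPKM in any library. PAGE2 and PAGE2B share 19.45% and 25.35% of their 100-base windows with each other, so part of each level is uncertain. Their promoters (RefSeq, GRCh38.p14, 250 bases before and 50 after the start) are shown because the pair was on or off together; capitals mark CpG sites. They lie at chrX:55088768-55089067 on the plus strand and chrX:55074780-55075079 on the plus strand.
PAGE2: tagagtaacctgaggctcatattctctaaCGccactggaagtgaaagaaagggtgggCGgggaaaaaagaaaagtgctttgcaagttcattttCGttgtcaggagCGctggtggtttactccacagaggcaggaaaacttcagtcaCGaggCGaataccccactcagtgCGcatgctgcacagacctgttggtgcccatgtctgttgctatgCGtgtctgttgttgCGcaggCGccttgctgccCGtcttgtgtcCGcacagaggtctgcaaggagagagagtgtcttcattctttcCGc
PAGE2B: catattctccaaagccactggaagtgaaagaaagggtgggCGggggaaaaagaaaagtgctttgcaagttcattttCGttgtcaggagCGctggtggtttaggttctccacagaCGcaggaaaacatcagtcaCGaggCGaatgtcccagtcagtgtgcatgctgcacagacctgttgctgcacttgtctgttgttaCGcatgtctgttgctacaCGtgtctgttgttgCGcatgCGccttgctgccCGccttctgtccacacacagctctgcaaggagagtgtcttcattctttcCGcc
The promoters hold 13 and 12 CpG sites and have 261 identical bases over an alignment of 321 positions (81.3%). The median over all 35116 promoters in the table is 14 CpG sites, and 12.5 over the 76 promoters found for 58 of the 67 genes.

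The genes outside the large families were held as follows. ACTL8, which encodes an actin-like protein (ENSG00000117148.7, chr1:17755313-17827063), had 229 and 258 FPKM in ANBL6, 83.5 and 89.5 in ARP1 and 73.1 and 73.1 in RPMI8226 in DMSO, with under 1 FPKM in U266 and ANBL6BR. ARP1 and RPMI8226 did not pass the test between them (limma adjusted p = 0.0659). PRAME, a substrate receptor of a cullin ubiquitin ligase, had 1.98 and 1.87 deposited FPKM in ARP1 and under 1 in the other models, but on merged exon lengths U266 also passed 1 FPKM, with 1.85 and 2.52. SPAG9, a scaffold of JNK signalling, lay between 0.510 and 3.34 FPKM in the DMSO libraries. TEX14, needed for the bridges between germ cells, had 1.04 and 1.17 deposited FPKM in ANBL6 and under 1 elsewhere. On merged exon lengths RPMI8226 (1.52 and 1.52 FPKM) and U266 (1.57 and 1.06 FPKM) held it too. DDX43, a helicase gene, was at most 0.335 FPKM and was not tested.

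Levels of different genes can be compared only per length. On merged exon lengths, the highest mean levels in DMSO were CTAG2 (531 FPKM), MAGEA1 (256) and PAGE2B (199) in U266. They were PAGE5 (207) and ACTL8 (164) in ARP1, and CTAG2 (174) and ACTL8 (138) in RPMI8226. In ANBL6BR SSX1 (113) led, and in ANBL6 ACTL8 (461) and PAGE1 (148) did.

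In the resistant form ANBL6BR most antigen transcripts of ANBL6 were at or near 0, and 1 antigen, SSX1, was at a far higher level. In DMSO, 13 of the 26 tested genes were called between ANBL6BR and ANBL6, 12 lower and 1 higher in ANBL6BR. Of all tested genes 51.8% were called, 24.8% lower and 27% higher, so the share called among these genes was near that of the background. TEX14 passed the threshold only through ANBL6 DMSO and SSX2IP only through ANBL6 libraries, so these had to be lower in ANBL6BR, and nothing is read from the split of directions. The median log2 fold change was -0.13 over the 26 genes and 0 over all tested genes. Median-ratio scaling shifts this comparison by -0.09 on the log2 scale, and less for genes at low level.

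ACTL8 had 0.528 and 0.256 FPKM in ANBL6BR and 229 and 258 FPKM in ANBL6, a log2 fold change of -7.46 ± 0.10 (SE; limma adjusted p = 3.17e-14). PAGE1 had 0.105 and 0.211 FPKM in ANBL6BR and 159.6 and 139 FPKM in ANBL6, a log2 fold change of -7.02 ± 0.13 (SE; limma adjusted p = 2.89e-13). In both genes the groups lay far apart, with the ANBL6BR libraries under 1 FPKM. MAGEA1 was at 0 fragments in both ANBL6BR libraries, against 1396 and 1331 in the ANBL6 libraries, at least 907-fold lower when a count of 0 is read as up to 3 fragments over the group. GAGE2A was likewise at 0 in ANBL6BR, against 390 and 363 fragments in ANBL6, at least 250.5-fold lower. Such limits cover counting error only.

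MAGEA12 and MAGEA4 were nearly absent from ANBL6BR as well. MAGEA12 had 0.0131 and 0 FPKM in ANBL6BR and 10.6 and 10.5 in ANBL6, a ratio of fragments of 0.000624 with an exact 95% interval for counting error of 1.58e-05 to 0.00348. MAGEA4 had 0.00761 and 0 FPKM in ANBL6BR and 8.19 and 8.26 in ANBL6, a ratio of 0.000464 with an interval of 5.62e-05 to 0.00168. MAGEC1 kept a low level, with 0.400 and 0.377 FPKM in ANBL6BR and 13.2 and 13.0 in ANBL6, a log2 fold change of -3.34 ± 0.16 (SE; limma adjusted p = 2.5e-09).

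SSX1, a transcriptional repressor gene known from its fusion to SS18 in synovial sarcoma (ENSG00000126752.7, chrX:48255317-48267444), ran the other way. It had 87.5 and 140.4 FPKM in ANBL6BR and 3.96 and 4.12 FPKM in ANBL6, a log2 fold change of 4.47 ± 0.15 (SE; limma adjusted p = 7.19e-11). The ANBL6BR DMSO libraries differed from each other, yet the lower of them was over the ANBL6 libraries by more than that spread, and the log2 fold change was 4.13 to 4.81 with 1 library left out. In the DMSO libraries of the other models SSX1 was at most 0.957 FPKM, and no other SSX antigen exceeded 0.0652 FPKM in any library. SSX2, SSX4 and SSX4B share 100% of their 100-base windows with another gene and SSX2B 85.8%, so their low values are uncertain. The lower calls of smaller size were TEX14 (-1.03), MAGEA9 (-0.95), SSX2IP (-0.77), SPAG9 (-0.61) and MAGEA9B (-0.32). The MAGEA9B call was lost without ANBL6BR DMSO replicate 1 or 2, or ANBL6 DMSO replicate 1 or 2, at limma adjusted p up to 0.0722.

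**Figure D3:**
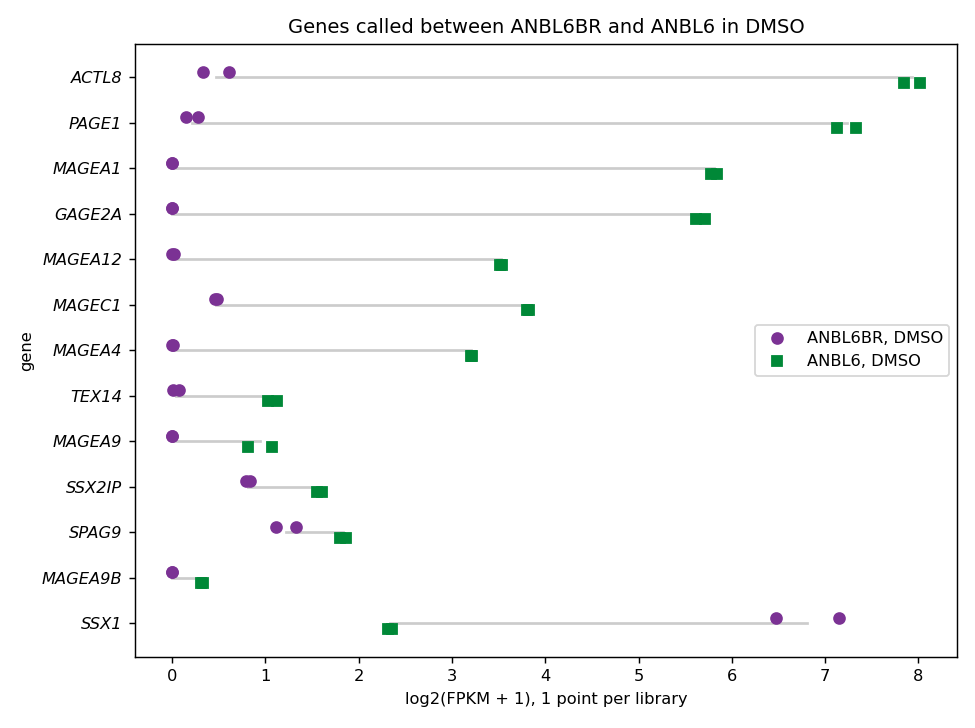
The 13 genes called between ANBL6BR (circles) and ANBL6 (squares) in DMSO, 1 point per library, as log2(FPKM + 1). Grey lines join the group means. SSX1 is higher in ANBL6BR, at 87.5 and 140.4 FPKM, and the other 12 genes are lower there.

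The promoters of ACTL8 and PAGE1, which were lower in ANBL6BR, and of SSX1, which was higher, are shown because ACTL8 and PAGE1 had the lowest fold changes on the log2(FPKM + 1) scale and SSX1 the 1 higher call. MAGEA4 and MAGEA12 had lower ratios of fragments. The promoters are RefSeq windows on GRCh38.p14 at chr1:17755083-17755382 on the plus strand, chrX:49695935-49696234 on the minus strand and chrX:48255142-48255441 on the plus strand, and capitals mark CpG sites.
ACTL8: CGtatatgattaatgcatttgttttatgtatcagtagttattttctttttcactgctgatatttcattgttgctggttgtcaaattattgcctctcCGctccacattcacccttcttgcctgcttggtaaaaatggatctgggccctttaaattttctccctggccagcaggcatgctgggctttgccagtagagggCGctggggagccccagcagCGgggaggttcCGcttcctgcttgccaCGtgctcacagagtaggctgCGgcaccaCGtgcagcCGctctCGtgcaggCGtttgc
PAGE1: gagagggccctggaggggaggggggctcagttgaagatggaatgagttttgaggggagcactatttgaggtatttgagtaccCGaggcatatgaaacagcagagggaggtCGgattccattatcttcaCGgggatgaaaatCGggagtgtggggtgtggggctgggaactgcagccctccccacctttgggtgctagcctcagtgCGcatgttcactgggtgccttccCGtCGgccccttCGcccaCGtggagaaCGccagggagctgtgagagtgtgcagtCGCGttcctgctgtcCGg
SSX1: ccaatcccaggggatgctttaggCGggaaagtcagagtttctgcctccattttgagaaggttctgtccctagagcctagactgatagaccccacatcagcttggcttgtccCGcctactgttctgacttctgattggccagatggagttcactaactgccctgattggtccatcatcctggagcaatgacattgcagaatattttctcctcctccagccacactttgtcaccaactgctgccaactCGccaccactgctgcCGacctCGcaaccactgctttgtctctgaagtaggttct
They hold 11, 13 and 5 CpG sites, and 45.3%, 48.3% and 29.6% of all promoters hold fewer. Short motifs were searched on both strands. CACGTG, the E-box letters, occurs in the ACTL8 and PAGE1 windows and not in the SSX1 window, in 20 of the 76 promoters of the gene set (13 of them of GAGE genes, most of them near-identical copies) and in 7.26% of all promoters. GCGGGAA, letters read by E2F factors, occurs in the SSX1 window and not in the other pair. It is in 7 of the 76 promoters, all of SSX genes, and in 6.55% of all promoters. CCGGAAG, letters read by ETS factors, occurs in none of these windows, in 2 of the 76 and in 10.3% of all promoters. No methylation was measured, and a match of letters is not a binding site.

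Lists of regulators were counted beside the share of all tested genes called in this comparison, 51.8% (27% higher and 24.8% lower). Of 14 listed DNA methylation genes 11 were tested, with 6 higher and 1 lower in ANBL6BR (median log2 fold change 0.33, against 0 over all genes), among them the methyltransferase gene DNMT3B (0.60, limma adjusted p = 6.62e-05) and TET1, of the oxidases that remove methylation (0.77, limma adjusted p = 8.16e-05). Of 22 histone repressor genes 9 were higher and 6 lower, with the H3K9 methyltransferase gene SUV39H1 at 1.16 and TRIM28, a corepressor and MAGE-bound ligase, at -0.96 (limma adjusted p = 3.06e-07 for SUV39H1 and 8.58e-07 for TRIM28). Of 7 activator and insulator genes 6 were tested, 4 higher and 1 lower. ETS1 had 22.0 and 12.5 FPKM in ANBL6BR and 2.10 and 2.53 in ANBL6, while ETS2 had 0.00713 and 0 in ANBL6BR and 19.0 and 16.6 in ANBL6. These lists were counted, not tested as sets.

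Other antigen genes and markers are read against the same 51.8%. Of 64 other cancer-testis antigen genes 24 were tested, with 4 higher and 9 lower in ANBL6BR (median -0.03). PASD1 had 0 and 0.00961 FPKM in ANBL6BR and 11.8 and 12.3 in ANBL6 and CSAG1 differed by -3.13 on the log2 scale. Of 12 MAGE genes of broad expression 6 were tested, with 4 higher and 1 lower, and MAGED1 had 7.85 and 6.41 FPKM in ANBL6BR and 0.00312 and 0 in ANBL6. Of 8 stroma and epithelium markers 4 were tested, and EPCAM was at 0 and 0 FPKM in ANBL6BR against 8.89 and 9.47 in ANBL6, with the list summing to 27.0 and 9.92 FPKM in ANBL6BR and to 29.6 and 30.7 FPKM in ANBL6. Of 10 plasma cell markers 5 were higher and 3 lower, with sums of 645.5 and 247.5 FPKM in ANBL6BR and 389 and 355 FPKM in ANBL6. The tested germ cell and testis markers, AMH and INSL3, had 1 call, INSL3, higher in ANBL6BR (1.26), and HBB, the tested 1 of 4 erythroid markers, was higher in ANBL6BR by 2.56 on the log2 scale, while none of the 4 T cell or 4 monocyte markers reached the threshold. The part of these differences in the antigen levels was not tested.

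By deposited FPKM, most antigens held in DMSO kept the same holding models with I3MO. Of the 67 genes, 43 were held by no model in DMSO and 24 by at least 1. A different set of holding models in I3MO was found for 7 genes (MAGEA9B, MAGEA10, GAGE2A, PAGE1, XAGE3, SPAG9 and TEX14). Of these, MAGEA9B and XAGE3 were held by no model in DMSO, and the rest were among the 24. None of the antigens above 5 FPKM in DMSO was lost. Across the 5 models taken as blocks, limma called 0 of the 26 genes and 0 of all 15687 (0%). At an unadjusted p under 0.05 the counts were 2 and 2651. The 2 genes were ACTL8, with a mean log2 fold change of -0.34 ± 0.11 (SE; limma adjusted p = 0.215), and TEX14, at -0.26 ± 0.10 (SE; limma adjusted p = 0.256). TEX14 was tested only through its ANBL6 DMSO libraries, which are part of this mean, so its value is no support.

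Within models there were 15 calls in 12 genes, 11 of them lower and 4 higher with I3MO. U266 had 7 of 26 genes called, 2 higher and 5 lower, where 26.2% of all tested genes were called (10.5% higher and 15.8% lower). ARP1 had 4 called, 2 in each direction, where 37% of all genes were (23.1% higher and 13.9% lower). RPMI8226 had 2, both lower, where 14.8% of all genes were called (6.19% higher and 8.62% lower). ANBL6BR had 1, lower, where 18.4% were called (10% higher and 8.4% lower). ANBL6 had 1, lower, where 7.97% were called (4.1% higher and 3.87% lower). The share of these genes called was close to the background in U266 and below it in the other models. In DMSO ANBL6BR held 2 of the genes, ARP1 6, and RPMI8226 and ANBL6 11 each. Genes near 0 in a model could not be called lower there, so the shares below background are not read as a result. Medians over the 26 genes lay between -0.04 in U266 and 0.01 in ANBL6, and over all genes between -0.02 in U266 and 0.03 in ARP1.

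**Figure D4:**
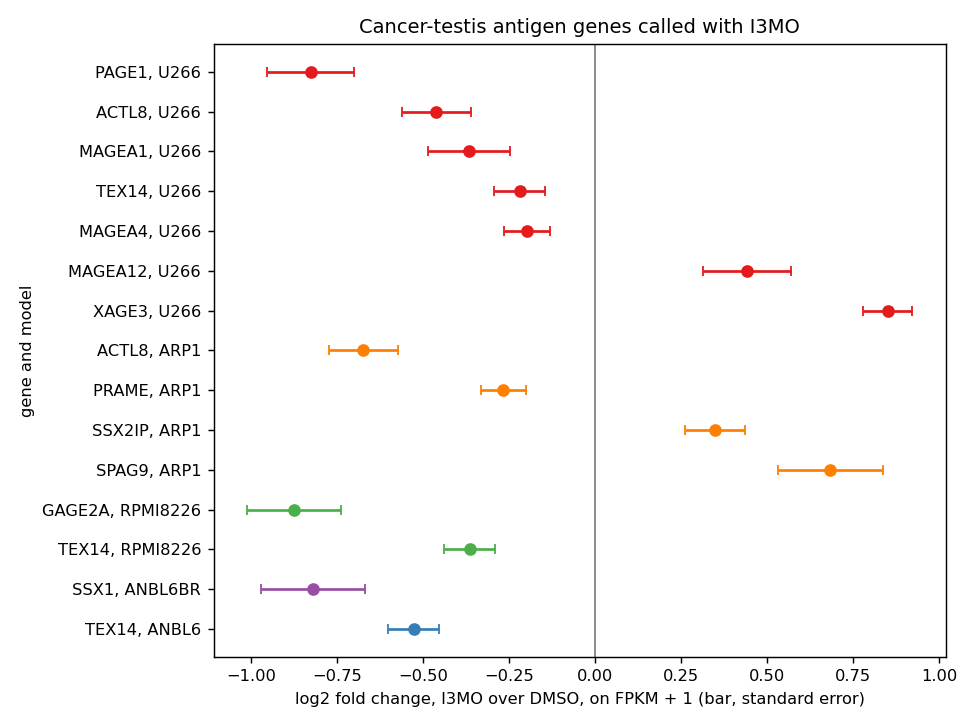
Log2 fold changes of I3MO over DMSO, on FPKM + 1, for the 15 called pairs of gene and model, grouped by model, with bars of 1 standard error from limma. XAGE3 in U266 (0.85) is the highest, and GAGE2A in RPMI8226 (-0.88) the lowest.

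TEX14 was called in 3 of the 5 models. It had 0.463 and 0.460 FPKM in the ANBL6 I3MO libraries, against 1.04 and 1.17 FPKM in the ANBL6 DMSO libraries, a log2 fold change of -0.53 ± 0.07 (SE; limma adjusted p = 0.00135). As TEX14 reached 1 FPKM only in the ANBL6 DMSO libraries, it had to be lower with I3MO there. This test and its test of equal responses are therefore no support. With no filter on low values, TEX14 had a limma adjusted p of 0.000246 in ANBL6 and 0.0155 for equal responses. These come from the same libraries and are no separate support. In RPMI8226 it had 0.0688 and 0.0930 FPKM in the RPMI8226 I3MO libraries, against 0.393 and 0.393 FPKM in the RPMI8226 DMSO libraries, a log2 fold change of -0.37 ± 0.07 (SE; limma adjusted p = 0.00509). The I3MO and DMSO libraries did not overlap in either model, and the ANBL6 DMSO level was the highest of all groups.

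In U266 TEX14 had 0.187 and 0.109 FPKM with I3MO and 0.404 and 0.273 FPKM in DMSO, a log2 fold change of -0.22 ± 0.07 (SE; limma adjusted p = 0.0435). This call was lost in 12 of the 18 fits with 1 library left out in which TEX14 could be tested, at limma adjusted p up to 0.287 (ANBL6BR I3MO, ARP1 I3MO, ARP1 DMSO, RPMI8226 I3MO and RPMI8226 DMSO replicates 1 and 2, U266 DMSO replicate 1 and U266 I3MO replicate 2), with no filter (limma adjusted p = 0.0534) and with the replicate number as a block (limma adjusted p = 0.0558). In ARP1 it had 0.0580 and 0.0204 FPKM with I3MO and 0.132 and 0.129 in DMSO, and in ANBL6BR 0 and 0 with I3MO and 0.0100 and 0.0538 in DMSO, neither of them called, though TEX14 was called in ARP1 with a pseudocount of 0.1 (limma adjusted p = 0.0329) and with merged exon lengths (0.0309). In all 5 models the I3MO libraries lay below the DMSO libraries. Counts of 135 and 115 fragments with I3MO and 312 and 351 in DMSO lie behind the ANBL6 values. The ANBL6 I3MO libraries had 32668 and 28419 genes above 0, and the ANBL6 DMSO libraries 22138 and 22710, with 29 and 30 against 21 and 24 of the antigen genes above 0. The part of this in the ANBL6 result was not tested.

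ACTL8 had 53.1 and 54.5 FPKM in the ARP1 I3MO libraries, against 83.5 and 89.5 FPKM in the ARP1 DMSO libraries, a log2 fold change of -0.67 ± 0.10 (SE; limma adjusted p = 0.000297). In U266, where ACTL8 is low, it had 0.250 and 0.467 FPKM with I3MO and 0.907 and 0.826 in DMSO, a log2 fold change of -0.46 ± 0.10 (SE; limma adjusted p = 0.00443). These U266 values came from 13 and 27 fragments with I3MO and 44 and 45 in DMSO. In both models the I3MO libraries were the lower ones, without overlap. In the other models that held it the call was not made: ACTL8 had 63.4 and 63.9 FPKM with I3MO and 73.1 and 73.1 in DMSO in RPMI8226 (limma adjusted p = 0.244), and 214 and 229 with I3MO and 229 and 258 in DMSO in ANBL6 (limma adjusted p = 0.497).

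SSX1 had 59.6 and 65.2 FPKM in the ANBL6BR I3MO libraries, against 87.5 and 140.4 FPKM in the ANBL6BR DMSO libraries, a log2 fold change of -0.82 ± 0.15 (SE; limma adjusted p = 0.0027). The groups did not overlap, but the DMSO libraries were far apart, and the log2 fold change was -0.48 without ANBL6BR DMSO replicate 2 and -1.16 without ANBL6BR DMSO replicate 1. The same DMSO libraries stand in the comparison of ANBL6BR with ANBL6, so the 2 results share them. In ANBL6 it had 3.52 and 3.33 FPKM with I3MO and 3.96 and 4.12 in DMSO, which was not called.

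In U266 the calls fell on genes at the edge of detection and on genes at high level. XAGE3 (ENSG00000171402.13, chrX:52862525-52868068) had 1.18 and 1.06 FPKM in the U266 I3MO libraries, against 0.223 and 0.133 FPKM in the U266 DMSO libraries, a log2 fold change of 0.85 ± 0.07 (SE; limma adjusted p = 3.49e-06). Behind these values lay 17 and 17 fragments with I3MO and 3 and 2 in DMSO, and in the other models the gene was above 0 in 1 library, from ANBL6 with I3MO. XAGE3 passed the threshold only through those I3MO libraries, so it had to be higher with I3MO in U266, and this test and its test of equal responses are no support. With no filter, XAGE3 had limma adjusted p = 2.73e-07 in U266 and 7.07e-06 for equal responses. These too come from the same libraries and are no separate support. PAGE1, high in ANBL6 and RPMI8226, had 0.721 and 0.741 FPKM in the U266 I3MO libraries, against 1.98 and 2.16 FPKM in the U266 DMSO libraries, a log2 fold change of -0.83 ± 0.13 (SE; limma adjusted p = 0.000414). These U266 values came from 7 and 8 fragments with I3MO and 18 and 22 in DMSO. PAGE1 was not called in RPMI8226 (81.1 and 70.4 FPKM with I3MO and 94.2 and 89.8 in DMSO, limma adjusted p = 0.187) or in ANBL6 (179.7 and 217 with I3MO and 159.6 and 139 in DMSO, limma adjusted p = 0.073).

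The other U266 calls were less stable, and the U266 I3MO libraries differed from each other, with replicate 2 the higher in each of the genes named next. MAGEA12 had 9.61 and 14.2 FPKM in the U266 I3MO libraries, against 8.38 and 8.33 FPKM in the U266 DMSO libraries, a log2 fold change of 0.44 ± 0.13 (SE; limma adjusted p = 0.0218). The log2 fold change was 0.18 without U266 I3MO replicate 2, where the call was lost (limma adjusted p = 0.169), and 0.70 without U266 I3MO replicate 1, and the call was also lost without U266 DMSO replicate 1 or 2 and with a pseudocount of 0.1 (limma adjusted p = 0.0693). MAGEA1 had 168 and 234 FPKM in the U266 I3MO libraries, against 268 and 245 FPKM in the U266 DMSO libraries, a log2 fold change of -0.37 ± 0.12 (SE; limma adjusted p = 0.0381). It was -0.13 without U266 I3MO replicate 1 (limma adjusted p = 0.313) and -0.60 without U266 I3MO replicate 2, and the call was lost in 11 of the 20 fits that left out 1 library, all but those without an ANBL6 I3MO, ANBL6BR DMSO, ARP1 I3MO or ARP1 DMSO library or U266 I3MO replicate 2. It was lost with no filter (limma adjusted p = 0.0709) and with median-ratio scaling (0.22) too. MAGEA4 had 27.3 and 31.2 FPKM in the U266 I3MO libraries, against 34.5 and 32.8 FPKM in the U266 DMSO libraries, a log2 fold change of -0.20 ± 0.07 (SE; limma adjusted p = 0.0466). It was -0.10 without U266 I3MO replicate 1, and the call was lost in 17 of the 20 such fits, all but those without an ANBL6BR DMSO library or U266 I3MO replicate 2, at limma adjusted p up to 0.295. It was also lost under each of the 6 other settings tried, at limma adjusted p from 0.0524 with no trend to 0.432 with a pseudocount of 0.1. MAGEB2, CTAG2, MAGEA3, MAGEA6, PAGE2, PAGE2B, PAGE5, MAGEC1 and MAGEC2, all held by U266, were not called there.

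In ARP1, PRAME had 1.39 and 1.48 FPKM in the ARP1 I3MO libraries, against 1.98 and 1.87 FPKM in the ARP1 DMSO libraries, a log2 fold change of -0.27 ± 0.07 (SE; limma adjusted p = 0.00717), a call lost without ARP1 DMSO replicate 1 (limma adjusted p = 0.0582) or ARP1 I3MO replicate 1 (0.0599) and with a pseudocount of 0.1 (0.104). The members that are not testis antigens were higher. SPAG9 had 2.01 and 1.81 FPKM in the ARP1 I3MO libraries, against 0.615 and 1.03 FPKM in the ARP1 DMSO libraries, a log2 fold change of 0.68 ± 0.15 (SE; limma adjusted p = 0.00403), lost without ARP1 DMSO replicate 1 (limma adjusted p = 0.0542). SSX2IP had 0.641 and 0.452 FPKM in the ARP1 I3MO libraries, against 0.142 and 0.288 FPKM in the ARP1 DMSO libraries, a log2 fold change of 0.35 ± 0.09 (SE; limma adjusted p = 0.00799), lost without ARP1 DMSO replicate 1 (0.0869) or ARP1 I3MO replicate 1 (0.0947). Median-ratio scaling shifts ARP1 fold changes by -0.29 on the log2 scale, and less for genes at low level. With it SPAG9 was at 0.52 and SSX2IP at 0.27. With that scaling MAGEA3 (-0.53, limma adjusted p = 0.0137) and PAGE5 (-0.39, limma adjusted p = 0.0121) were called as well. Without it neither was called (limma adjusted p = 0.11 for MAGEA3 and 0.419 for PAGE5), so these calls rest on the scaling. As deposited, MAGEA3 had 29.4 and 33.9 FPKM with I3MO and 37.9 and 37.7 in DMSO. PAGE5 had 60.7 and 70.4 FPKM with I3MO and 65.2 and 75.4 in DMSO, groups that overlapped.

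In RPMI8226, GAGE2A had 0.494 and 0.471 FPKM in the RPMI8226 I3MO libraries, against 1.88 and 1.57 FPKM in the RPMI8226 DMSO libraries, a log2 fold change of -0.88 ± 0.14 (SE; limma adjusted p = 0.000914). These values came from 4 and 5 fragments with I3MO and 15 and 13 in DMSO, and the call was lost with a pseudocount of 0.1 (limma adjusted p = 0.064). In ANBL6, where GAGE2A is far higher, it had 41.2 and 53.5 FPKM with I3MO and 51.5 and 47.9 in DMSO, groups that overlapped. CTAG2, the highest antigen of RPMI8226, had 91.8 and 88.9 FPKM with I3MO and 111 and 88.0 in DMSO, and was not called.

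**Figure D5:**
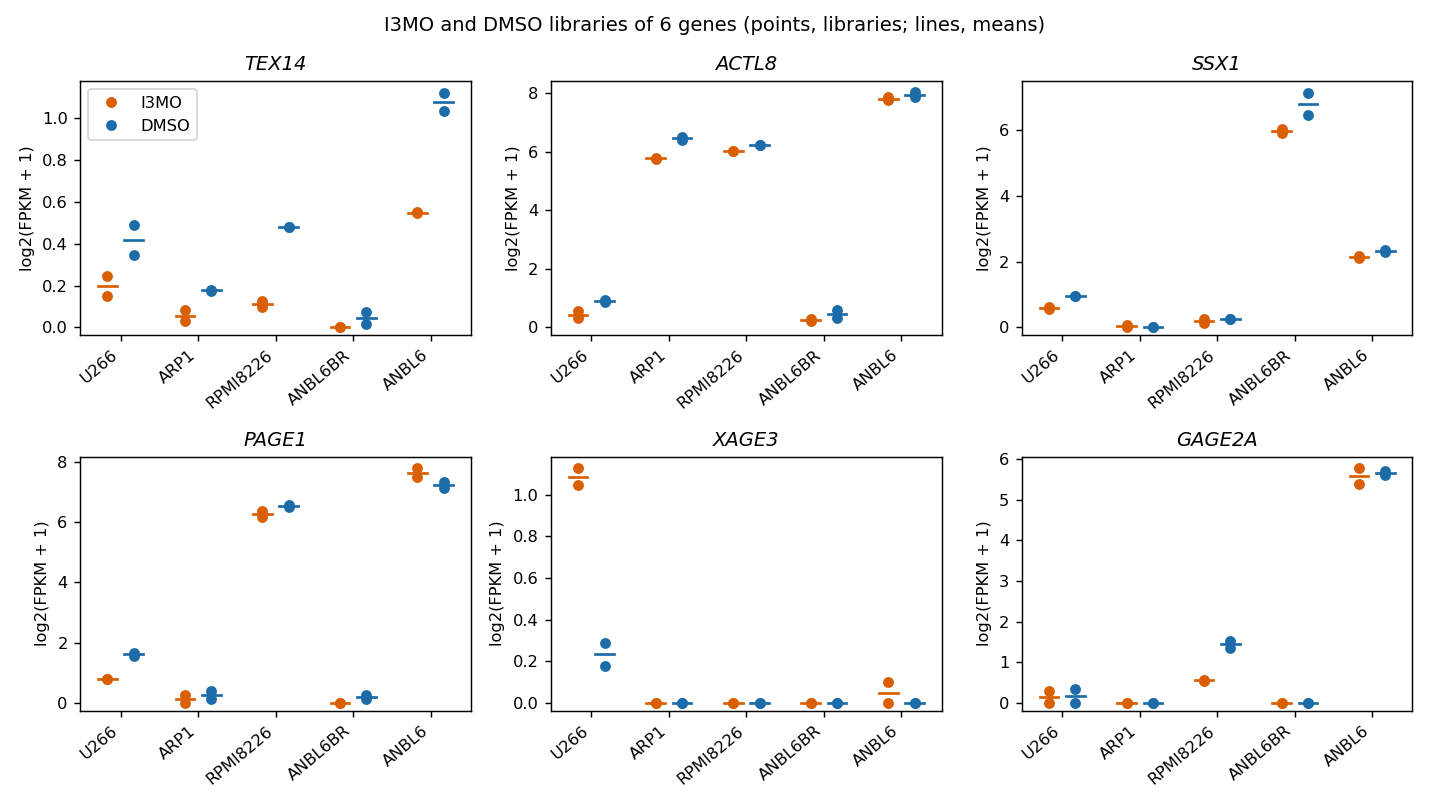
Levels of TEX14, ACTL8, SSX1, PAGE1, XAGE3 and GAGE2A in each library, as log2(FPKM + 1), by model, with I3MO (orange) left of DMSO (blue). Short lines are means of 2 libraries. TEX14 lies lower with I3MO in every model, while XAGE3 reaches 1.18 and 1.06 FPKM in the I3MO libraries of U266 alone.

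The test of equal I3MO responses in the 5 models called 9 of the 26 genes, where 44.5% of all tested genes were called. They were XAGE3, PAGE1, GAGE2A, TEX14, SPAG9, SSX2IP, ACTL8, SSX1 and MAGEA1. For XAGE3 and TEX14 a difference was built into their selection. The response of ANBL6BR minus that of ANBL6 was called for 2 of the 26, TEX14 and MAGEC1, both positive, where 8.47% of all tested genes were called (4.14% higher and 4.33% lower). MAGEC1 had 0.546 and 1.40 FPKM with I3MO and 0.400 and 0.377 in DMSO in ANBL6BR, and 11.1 and 8.84 with I3MO and 13.2 and 13.0 in DMSO in ANBL6. The difference of responses was 0.84 ± 0.23 (SE; limma adjusted p = 0.0431). It was 0.52 without ANBL6BR I3MO replicate 2, and the call was lost in 16 of the 20 fits that left out 1 library, all but those without a U266 I3MO library, ANBL6BR I3MO replicate 1 or ANBL6 I3MO replicate 1. It was also lost with a pseudocount of 0.1 (limma adjusted p = 0.0968), with no filter (0.0555) and with median-ratio scaling (0.0666). For TEX14 the difference was 0.48 ± 0.10 (SE; limma adjusted p = 0.0158), lost without ANBL6BR I3MO replicate 2 (0.0573), and with a pseudocount of 0.1 (0.252), with TEX14 near 0 in ANBL6BR in both treatments. As TEX14 was tested only through ANBL6 DMSO, this difference was built into its selection.

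UHRF1 and DNMT1, which maintain DNA methylation, were called lower with I3MO in all 5 models. UHRF1, which guides the maintenance methyltransferase to new DNA, had 0.940 and 1.20 FPKM in the U266 I3MO libraries, against 7.29 and 7.46 FPKM in the U266 DMSO libraries, a log2 fold change of -2.02 ± 0.10 (SE; limma adjusted p = 6.79e-08). Its log2 fold changes elsewhere were -1.12 in ARP1, -0.35 in RPMI8226, -1.29 in ANBL6BR and -0.50 in ANBL6, each called. DNMT1, that methyltransferase, was called lower in each model too, between -0.77 in U266 and -0.35 in RPMI8226. Of the 11 tested DNA methylation genes, 4 were lower and 1 higher in U266, 3 lower and 3 higher in ARP1, 2 lower in RPMI8226, 4 lower in ANBL6BR and 3 lower in ANBL6. Of all tested genes 26.2% were called in U266, 37% in ARP1, 14.8% in RPMI8226, 18.4% in ANBL6BR and 7.97% in ANBL6. The antigen genes under 1 FPKM in both DMSO libraries of a model stayed under 1 FPKM in its I3MO libraries, except XAGE3 in both U266 libraries and, in 1 library each, MAGEB6 and MAGEC1 in ANBL6BR and MAGEA9B in RPMI8226. No methylation was measured, and a link between the DNA methylation genes and the antigen levels was not tested.

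The other lists are read against those same shares of all tested genes. Of the 22 histone repressor genes, 6 were lower in U266, 10 lower and 6 higher in ARP1, 3 lower in RPMI8226, 7 lower in ANBL6BR and 1 lower in ANBL6, so that the share in U266 was near the background. HDAC1, a histone deacetylase gene, was called lower in U266 (-0.58), ARP1 (-0.90), RPMI8226 (-0.60) and ANBL6BR (-0.66). Of 13 tested protein partners of the antigens, 3 were lower and 1 higher in U266, 6 lower and 3 higher in ARP1, 1 in each direction in RPMI8226, 4 lower in ANBL6BR and 1 lower in ANBL6. RBM14, an RNA-binding protein gene, was called lower in U266, ARP1, RPMI8226 and ANBL6BR, with its lowest log2 fold change in ANBL6BR (-1.36). Of 10 plasma cell markers, 3 were lower in U266, 4 lower and 1 higher in ARP1, 3 lower in RPMI8226, and 1 in each direction in ANBL6BR. With I3MO, INSL3 was called higher in U266 (0.77) and the erythroid marker HBB lower there (-0.68), and of the 4 tested stroma and epithelium markers 1 was higher in RPMI8226 and 1 in each direction in U266. The part of these changes in the antigen values was not tested.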

How the data were processed

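RNA sequencing of total RNA gave 20 libraries in 10 groups of 2. The deposited values are FPKM, from reads that the authors trimmed with Trimmomatic (0.32 and 0.36 are named), aligned to hg38 with STAR and handled with SAMtools, per the submitters' processing notes. How fragments were counted, on which strand and with which annotation is not given in the sources used here. GENCODE 29 supplied symbols, positions and transcripts, and RefSeq (GRCh38.p14) the promoters. The deposited FPKM gave whole fragments, within 0.005, for 50 of the 55 members above 0. The total was 12110454 to 20312340 fragments per library and the gene length was the summed length of all transcripts. For the other 5 (MAGEA12, MAGEB6B, PAGE5, SSX5 and CTAG1B) that length did not give whole fragments. The shortest length that did was used for them, so their fragment counts depend on that choice.

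Genes with at least 1 FPKM in at least 2 libraries were tested with limma 3.58.1 in R 4.3.3 on log2(FPKM + 1), with 1 mean per group over all 20 libraries, an intensity trend and adjustment over 15687 genes. The fit across models used the 10 group means with the model as a block. The script was tested on simulated data. Alternatives were a pseudocount of 0.1, no filter, median-ratio scaling, no trend, the replicate number as a block, leaving out each library and, added after the data were seen, merged exon lengths. A count of 0 was read as up to 3 fragments. The rule for named genes took every tested member, with values per library for those called with I3MO and for the highest of each family, and from each companion list the 2 to 4 genes of smallest p in a comparison. A list gene named for 1 comparison is also shown in others. Members under the threshold and marker genes were named after their values were seen. The gene set and all companion lists were chosen with earlier results of these data known.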

Additional observations from a re-analysis of the deposited data

Results flagged for a closer look

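For 9 genes the I3MO response differed between the 5 models by the limma test of equal responses, with p-values adjusted over all tested genes. The adjusted p was 0.000177 for XAGE3, 0.00302 for PAGE1, 0.01 for GAGE2A, 0.0145 for TEX14, 0.0231 for SPAG9, 0.0316 for SSX2IP, 0.032 for ACTL8, 0.0336 for SSX1 and 0.0379 for MAGEA1. In the same test 44.5% of all tested genes were called. XAGE3 was tested only because its U266 I3MO libraries passed 1 FPKM, so its difference was built into that selection (limma adjusted p = 7.07e-06 with no filter). TEX14 was likewise tested only through its ANBL6 DMSO libraries (limma adjusted p = 0.0155 with no filter). The fits with no filter use the same libraries and are no separate support. XAGE3, PAGE1 and GAGE2A were called in models where they lay near 1 FPKM, and PAGE1 and GAGE2A were not called in ANBL6, where they were high.

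The response of ANBL6BR differed from that of ANBL6 for TEX14 (limma adjusted p = 0.0158) and MAGEC1 (limma adjusted p = 0.0431). TEX14 passed the threshold only through ANBL6 DMSO, so its difference was built into that selection. MAGEC1 was called in neither model alone.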

How the results depend on the processing

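No call reversed under any alternative run. With median-ratio scaling the calls with I3MO were 0 in ANBL6, 1 in RPMI8226 and 4 in U266, and 0 for the response difference. With a pseudocount of 0.1 they were 1 in RPMI8226, 4 for equal responses and 0 for the response difference, and with no filter that difference had 1. Median-ratio scaling put summed DMSO levels in U266 at 376.0 FPKM for MAGEA (412.6 as deposited), 238.1 for PAGE (261.3) and 277.5 for CTAG (304.4). The GAGE sum in ANBL6 DMSO became 45.8 (49.9) and the XAGE sum in U266 I3MO 1.96 (2.06). Leaving out 1 library gave 4 to 8 calls in U266, 1 to 5 in ARP1, 1 to 5 in RPMI8226, 1 to 2 in ANBL6BR, 0 to 2 in ANBL6, 0 to 0 across models, 4 to 13 for equal responses, 0 to 3 for the response difference, 11 to 14 for ANBL6BR against ANBL6 and 25 to 26 for DMSO levels. TEX14 falls under the threshold without an ANBL6 DMSO library and with median-ratio scaling. The cause of these moves was not tested.

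Deviations of same-numbered samples had r between -0.146 and 0.222 over 45 pairs of groups, highest between the I3MO groups of ARP1 and U266. Such correlations cannot show whether samples were paired or shared a batch, which is not given in the sources used here. With the replicate block U266 had 5 calls, and the other comparisons with I3MO within a model and ANBL6BR against ANBL6 had as many as without it. With merged exon lengths 27 of the genes passed the threshold, with 6 calls in U266, 6 in ARP1 and 16 for ANBL6BR against ANBL6.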

Other observations

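Some genes under the threshold for testing had unequal values at low counts, and were picked out after their values were seen. MAGEB18 had 0.773 and 0.799 FPKM in ARP1 with I3MO and 0.263 and 0.215 FPKM in DMSO, from 21 and 24 fragments with I3MO and 8 and 7 in DMSO. With no filter on low values limma gave it a log2 fold change of 0.53 ± 0.04 (SE; adjusted p = 7.34e-06). MAGEB6 had 0.383 and 1.06 FPKM in ANBL6BR with I3MO and 0.142 and 0.214 in DMSO. In RPMI8226 it had 0.265 and 0.556 FPKM with I3MO and 0.0672 and 0.195 in DMSO. In these 3 cases the I3MO libraries lay above the DMSO libraries. With I3MO in U266, the fit with no filter also called GAGE13, MAGEA11, MAGEB10, MAGEB3 and XAGE1B higher. It called MAGEC3 lower there (-0.16, limma adjusted p = 0.0087). Behind the MAGEA11 call lay 2 and 4 fragments with I3MO and 0 and 0 in DMSO, so calls of that fit at low counts are weak.

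CTAG1A and CTAG1B, the NY-ESO-1 copies, were found mainly in U266. CTAG1A had 9 and 7 fragments with I3MO and 8 and 19 in DMSO, and CTAG1B had 19 and 9 with I3MO and 11 and 13 in DMSO, groups that overlapped in both genes.

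Among cancer-testis antigens outside the set, SAGE1 had 7.14 and 6.11 FPKM in ARP1 with I3MO and 1.74 and 2.73 in DMSO, a log2 fold change of 1.25 ± 0.17 (SE; limma adjusted p = 0.000192). CT45A5 had 8.60 and 13.7 FPKM in the U266 I3MO libraries, against 4.91 and 4.65 FPKM in the U266 DMSO libraries, a log2 fold change of 1.04 ± 0.15 (SE; limma adjusted p = 0.000241). CT83 had 21.6 and 27.2 FPKM in the U266 I3MO libraries, against 13.4 and 11.1 FPKM in the U266 DMSO libraries, a log2 fold change of 0.93 ± 0.19 (SE; limma adjusted p = 0.00295). SAGE1, CT45A5 and CT83 are all higher calls. Of the 24 tested genes of that list, 4 were called higher and 7 lower in U266 and 9 higher and 2 lower in ARP1. In ANBL6BR 0 were higher and 5 lower, in RPMI8226 0 higher and 4 lower, and in ANBL6 2 higher and 1 lower. Of all tested genes 10.5% were called higher and 15.8% lower in U266, and 23.1% higher and 13.9% lower in ARP1. The shares were 10% higher and 8.4% lower in ANBL6BR, 6.19% and 8.62% in RPMI8226, and 4.1% and 3.87% in ANBL6.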
